A study of Mus musculus with 2 samples.

Results

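Mir219a-1, Mir219a-2 and Mir338 are the microRNA (miRNA) genes best known from the oligodendrocyte lineage, the cells that make myelin in the brain and spinal cord. They were taken from the deposited count tables by gene symbol, and 3 of the 1973 genes listed were members. Mir219b, which the same rule would have taken, had no row in the tables. The samples were midbrain of mouse embryos of strain B6NCrl at 15.5 days of development, each a pool of healthy male and female embryos. Replicate 1 held midbrain from 78 embryos and replicate 2 from 62. RNA below 30 bases was sequenced, with no treatment or mutation, and the 2 libraries form 1 group. The design therefore gives levels and their spread between pools, and no contrast between conditions.

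A miRNA is cut from a hairpin transcript, and its seed, bases 2 to 8 of the mature strand, pairs with target mRNAs and lowers their output. In mouse, miR-219 and miR-338 are known to accumulate as oligodendrocyte precursors leave the cell cycle and mature. They repress genes that hold precursors in their immature state, among them Pdgfra, Sox6 and Hes5. Oligodendrocyte precursors form in the embryonic brain, and most of their differentiation and myelination comes later, largely after birth.

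The mature strands that RefSeq lists for the members are shown with their seeds in capitals. The seed and the sharing of a strand between genes decide what each count can mean. All sequences are from RefSeq (GRCm38.p6), in which each member had an entry.

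miR-219a-5p: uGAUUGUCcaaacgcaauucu
miR-219a-1-3p: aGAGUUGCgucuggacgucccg
miR-338-3p: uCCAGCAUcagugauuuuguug
miR-338-5p: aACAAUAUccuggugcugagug

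Mir219a-1 and Mir219a-2 both encode miR-219a-5p, the guide strand known for repressing Pdgfra and Sox6 in mouse. No other gene in the RefSeq table, which holds 1679 mature miRNA names, had a strand with that seed. For Mir219a-2 the RefSeq table gave miR-219a-5p alone, so no strand from the other side of its hairpin is shown. The strands shown may therefore be incomplete for that gene. The seeds of miR-338-3p, the strand known for repressing Sox6 and Hes5, and of miR-338-5p were each found in Mir338 alone. The members therefore form 2 seed groups by their known guide strands, the Mir219a pair and Mir338.

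The whole hairpins show where a read can tell the genes apart. In the Mir219a hairpins the capitals mark the longest stretch they share, and in Mir338 they mark its 5p and 3p strands.

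Mir219a-2: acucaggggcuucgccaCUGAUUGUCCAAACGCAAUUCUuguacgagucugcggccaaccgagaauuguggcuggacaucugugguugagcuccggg
Mir219a-1: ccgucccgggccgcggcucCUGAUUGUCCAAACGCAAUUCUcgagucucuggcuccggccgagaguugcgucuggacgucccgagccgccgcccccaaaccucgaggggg
Mir338: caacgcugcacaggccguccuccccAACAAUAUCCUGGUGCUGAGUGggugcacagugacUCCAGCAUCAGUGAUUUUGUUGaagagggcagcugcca

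The Mir219a hairpins share 22 bases, which cover all 21 bases of miR-219a-5p and 1 base before it. A read of exactly that strand fits both genes. On the 3p side of the shared stretch their longest common run was 7 bases, so reads from there tell the genes apart. Outside the Mir219 genes, the longest stretch shared with any of 2200 other miRNA transcripts of GENCODE M21, read on both strands, was 12 bases for Mir219a-2 and 13 for Mir219a-1. For Mir338 it was 15 bases. Levels are given as CPM, the sense reads of a gene per 1000000 sense reads of all miRNA genes. Among the 203 genes whose mean reached 100 CPM, 46 (22.7%) shared 20 bases or more with a gene at another place, as the Mir219a genes do and Mir338 does not. In the deposited tables reads with several mapping places have a row of their own, which held 37.7% of all reads in replicate 1 and 35.8% in replicate 2. The counts of Mir219a-1 and Mir219a-2 may therefore leave out reads of their main strand, and the tables do not say how many of those reads were miR-219a-5p. Counts are given per gene, so which mature strand the assigned reads came from was not tested.

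The genes lie on 3 chromosomes (mm10). Mir219a-2 is at chr2:29845631-29845727 on the minus strand, outside other annotated genes of that strand and 629 bases from Urm1. Mir219a-1 is at chr17:34024983-34025092 on the minus strand, 303 bases from Ring1, a gene of the Polycomb complex. It partly overlaps an exon of the long noncoding gene Gm26940 (chr17:34024966-34025070, same strand) and extends past the end of that gene. Mir338 is at chr11:120014765-120014862 on the minus strand, in an intron of Aatk, a kinase gene of the same strand. No other miRNA gene of the tables lay near them, the closest being 150.2 kb from Mir219a-2, 138.2 kb from Mir219a-1 and 53.3 kb from Mir338. Each hairpin is overlapped on the opposite strand by a further annotated miRNA gene, namely Mir219b, Mir219c and Mir3065 in the same order. None of those has a row in the tables.

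The tables list 7557669 reads for replicate 1 and 13115314 for replicate 2, of which 3429704 and 5752476 lay on the sense strand of a miRNA gene. These sense reads are the total behind each CPM. One read equals 0.292 CPM in the smaller library (replicate 1) and 0.174 CPM in the larger. The mean was at or above 1 CPM for 474 genes, whose median level was 52.7 CPM, and 1256 genes had no sense count in either library. Of the miRNAs listed as cell type markers, the highest of the neuronal list was Mir137, at 11192 ± 555 CPM (SD, n = 2). The highest of the progenitor list was Mir93, at 12531 ± 1004 CPM (SD, n = 2). Whether the listed genes mark those cells in midbrain was not tested. The neuronal Mir124a copies were each below 5 CPM, but they share their mature strand. In the progenitor list Mir106b had 7735 CPM, Mir92b 4060 CPM, Mir9-3 484 CPM, Mir25 369 CPM and Mir9-2 1.66 CPM. The Mir9 copies also share a mature strand, so their counts may leave out reads too. The labels call the libraries biological replicates from separate pools.

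All 3 members were readily counted in the midbrain at this stage, with Mir219a-2 well above the other 2. Mir219a-2 had 4201 sense reads in replicate 1 and 6155 in replicate 2. That is 1225 CPM (95% exact interval 1188 to 1262) in replicate 1 and 1070 CPM (1043 to 1097) in replicate 2. Its mean was 1147 ± 110 CPM (SD, n = 2), rank 85 of all genes. The library of 78 embryos was thus the higher, and the counting intervals did not overlap. Intervals cover counting error only and not spread between pools. Reads without molecular identifiers are not independent molecules, so even counting error may exceed these intervals.

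Mir219a-1, the copy beside Ring1, had 1119 sense reads in replicate 1 and 1929 in replicate 2. Its level was 326 CPM (307 to 346) in replicate 1 and 335 CPM (321 to 351) in replicate 2, a mean of 331 ± 6.41 CPM (SD, n = 2) and rank 150. The counting intervals of the libraries overlapped for this gene.

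Mir338, the miRNA of the Aatk intron, had 892 sense reads in replicate 1 and 1624 in replicate 2. Its level was 260 CPM (243 to 278) in replicate 1 and 282 CPM (269 to 296) in replicate 2, a mean of 271 ± 15.7 CPM (SD, n = 2) and rank 159. Here the library of 62 embryos was the higher, with overlapping intervals.

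**Figure D1:**
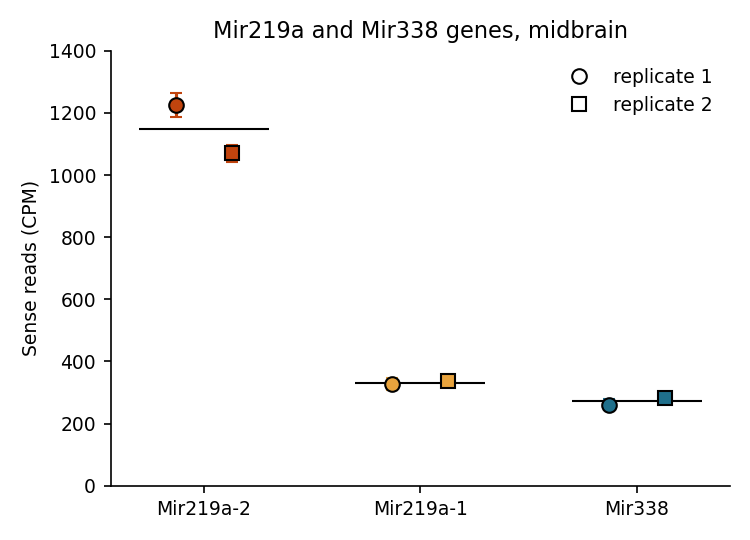
Sense reads in CPM (vertical axis) of each gene in replicate 1 (circles) and replicate 2 (squares), with 95% exact counting intervals and the mean as a line. Mir219a-2 lies at 1225 and 1070 CPM, above every value of Mir219a-1 and Mir338.

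The order of levels in counts was Mir219a-2, Mir219a-1 and Mir338 in both libraries, and the values of neighbouring genes in that order did not overlap. Mir219a-2 exceeded Mir219a-1 by 3.75 times (95% exact interval 3.51 to 4.01) in replicate 1 and 3.19 times (3.03 to 3.36) in replicate 2. It exceeded Mir338 by 4.71 times (4.38 to 5.07) in replicate 1 and 3.79 times (3.59 to 4.01) in replicate 2. Mir219a-1 exceeded Mir338 by only 1.25 times (1.15 to 1.37) in replicate 1 and 1.19 times (1.11 to 1.27) in replicate 2.

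A miRNA read covers a mature strand and not the whole hairpin, so counts need not grow with hairpin length. The hairpins are 97 bases for Mir219a-2, 110 for Mir219a-1 and 98 for Mir338. Per hairpin base, Mir219a-1 stood at 1.12 times Mir338 (1.02 to 1.22) in replicate 1 and 1.06 times (0.990 to 1.13) in replicate 2. On that scale the interval of replicate 2 includes equality, while Mir219a-2 remained 4.26 and 3.62 times Mir219a-1 in replicates 1 and 2. Reads that fit both Mir219a genes may be in neither count, so these ratios compare what was assigned to each gene and not the output of each locus.

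Together the members held 0.181% of sense counts in replicate 1 (95% exact interval 0.177 to 0.186) and 0.169% in replicate 2 (0.165 to 0.172), a mean of 0.175 ± 0.00874% (SD, n = 2). Mir219a-2 made up 67.6% of their reads in replicate 1 and 63.4% in replicate 2. In bulk tissue, few cells with a high level and many cells with a low level cannot be told apart.

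In the ranking of all genes, 84 lay above Mir219a-2, 64 between it and Mir219a-1, and 8 between Mir219a-1 and Mir338. Mir219a-2 was higher than 82.1% of the 474 genes at or above 1 CPM, Mir219a-1 higher than 68.4% and Mir338 higher than 66.5%. The members were thus in the upper part of the detected miRNAs, and none was among the highest 84.

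**Figure D2:**
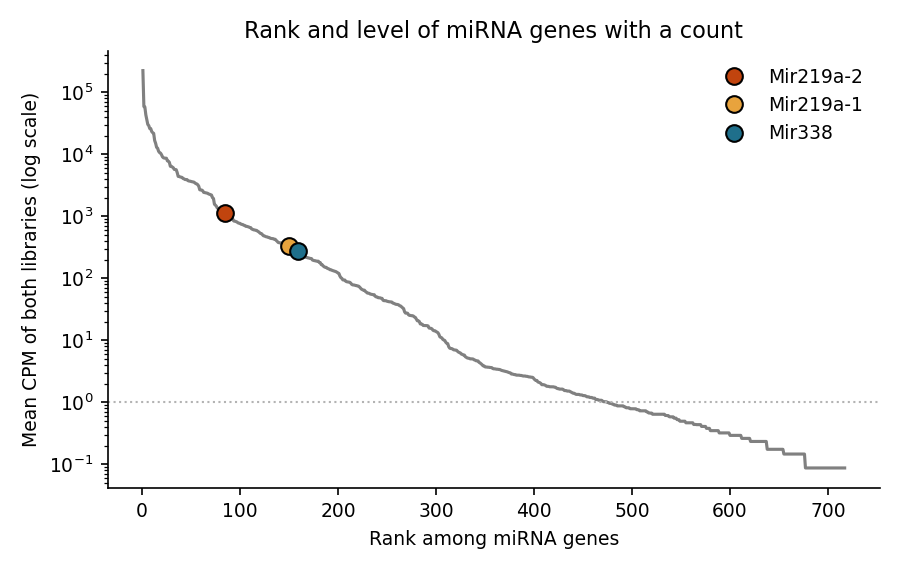
Mean CPM of both libraries (vertical log axis) against rank (horizontal axis) for every miRNA gene with a count, with the members as coloured points and 1 CPM as a dotted line. The members sit at ranks 85, 150 and 159, well above the dotted line.

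The genes nearest in level over both libraries were found by Euclidean distance of log2(CPM + 1) over the 2 libraries. For Mir219a-2 the nearest was Mir138-1 at 1110 CPM in replicate 1 and 1065 CPM in replicate 2 (distance 0.14). Mir138 is itself known from maturing mouse oligodendrocytes as well as from neurons. Mir770 (distance 0.16) and Mir467d (0.16) followed. For Mir219a-1 they were Mir339 at 324 and 330 CPM in replicates 1 and 2 (0.025), Mir1251 (0.11) and Mir384 (0.12). For Mir338 they were Mir700 at 259 and 277 CPM (0.028), Mir665 (0.15) and Mirlet7a-1 (0.18). With 2 libraries, likeness is a matter of level and shows no shared pattern.

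Between the pools, Mir219a-2 was higher in replicate 1 beyond counting error, and Mir219a-1 and Mir338 were not called. After TMM scaling, a trimmed-mean adjustment of library totals, and with 1 CPM added to each level, the log2 ratio of replicate 1 over replicate 2 was 0.23 for Mir219a-2 (95% counting interval 0.17 to 0.29), a fold of 1.17. Its adjusted p was 4.94e-14 in the two-sided conditional exact binomial test, adjusted by Benjamini-Hochberg over all 717 genes that had any count. Mir219a-1 had a log2 ratio of -0.0060 (-0.11 to 0.10, adjusted p 1 in the same exact test). Mir338 had a log2 ratio of -0.085 (-0.20 to 0.034, adjusted p 0.440 in the same exact test). The members called therefore numbered 1 of 3, where 19.8% of the 717 genes tested were called in either direction. Among the 203 genes of at least 100 CPM, where depth allows small differences to be called, the share was 57.1%, so a call at this level is common.

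Set against the genes of at least 100 CPM, the difference of Mir219a-2 was larger than most. Of those genes, 82.3% had a smaller absolute log2 ratio, the median being 0.12. Mir338 exceeded 35.0% of them and Mir219a-1 2.46%. The SD of Mir219a-2 was 9.55% of its mean, against 1.94% for Mir219a-1, 5.80% for Mir338 and a median of 5.88% over genes of at least 100 CPM. When a coefficient of variation of 10% between pools was allowed for in edgeR's exact test, Mir219a-2 was no longer called (adjusted p 1), and 0.418% of the genes tested were. That 10% is close to the 10.1% that edgeR estimated over these same 2 libraries, so few calls follow from the setting. Either test compares these 2 libraries, and with 1 library per pool the difference has no replicate check.

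**Figure D3:**
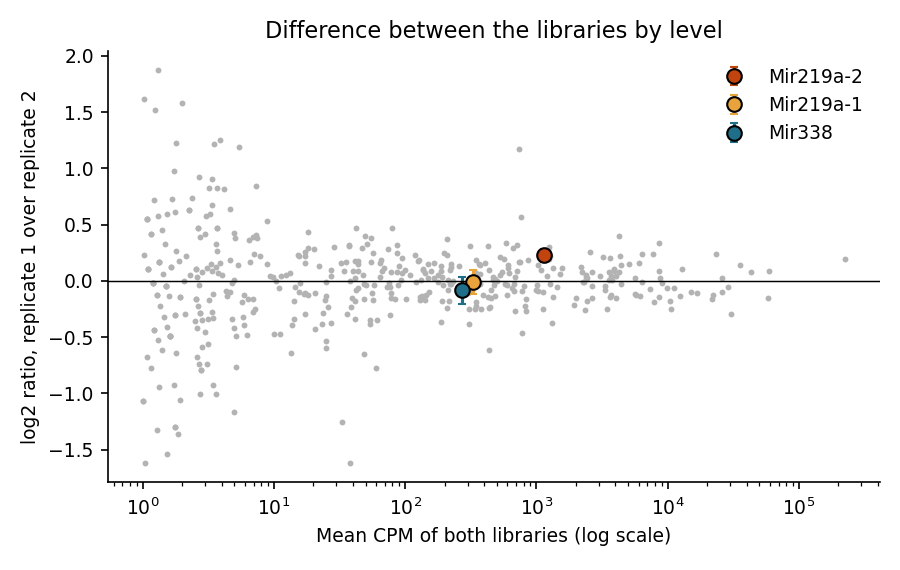
Log2 ratio of replicate 1 over replicate 2 (vertical axis) against mean CPM of both libraries (horizontal log axis) for genes of at least 1 CPM in grey, with the members and their 95% counting intervals in colour. Mir219a-2 lies at 0.23, while Mir219a-1 and Mir338 have intervals that include 0.

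The ratio between the Mir219a copies itself differed between the pools beyond counting error. The ratio of Mir219a-2 to Mir219a-1 was 1.18 times as large in replicate 1 as in replicate 2 (95% exact interval of the odds ratio 1.08 to 1.28). That of Mir219a-2 to Mir338 was 1.24 times as large (1.13 to 1.36). That of Mir219a-1 to Mir338 was 1.06 times as large, with an interval from 0.945 to 1.18 that includes equality. These intervals hold counting error alone.

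Genes that share a mature strand often differed in their assigned counts. By a rule chosen after the values were seen, 21 pairs of genes share a mature strand that RefSeq gives to exactly 2 genes and have means of at least 1 CPM in both. The higher gene of a pair exceeded the lower by a median of 2.26 times, with a range from 1.01 for Mir125b-2 and Mir125b-1 to 127 for Mir181b-2 and Mir181b-1. The Mir219a pair, at 3.47 times in mean CPM, had 12 pairs below it. Its neighbours in this order were Mir450-1 and Mir450-2 at 2.48 times and Mir129-2 and Mir129-1 at 3.58 times. Mirlet7c-2 was counted in pairs with both Mirlet7c-1 and Mirlet7a-1, so the pairs were not all separate. In every pair, exact reads of the common strand fit both genes and may be in neither count. The folds therefore compare assigned counts and not the output of each gene.

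**Figure D4:**
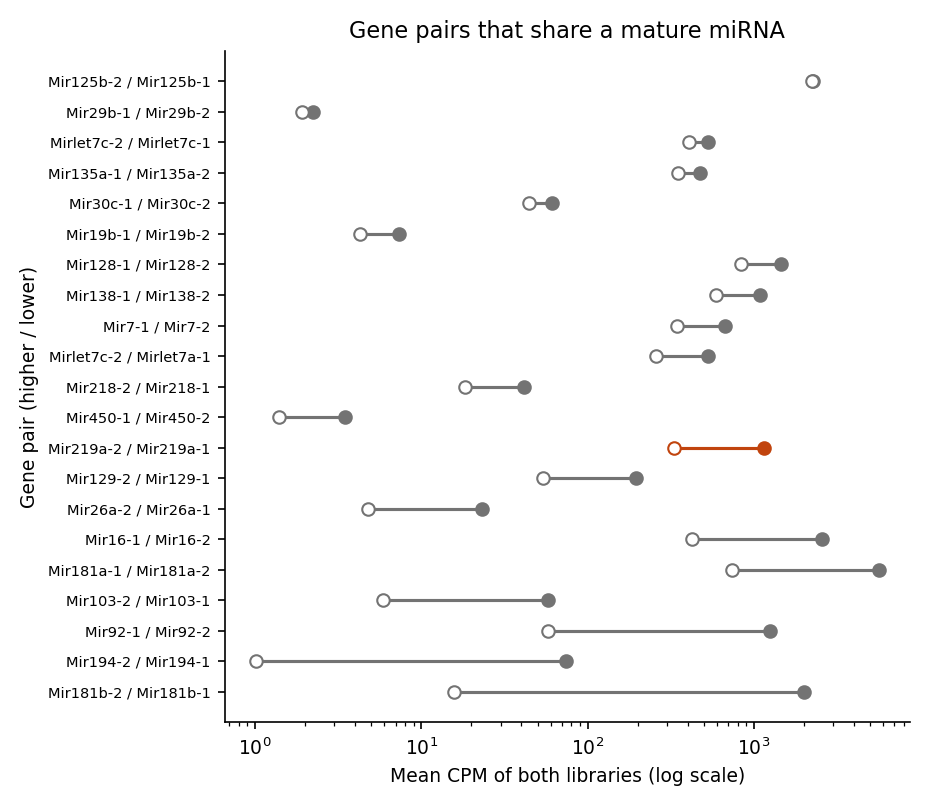
Mean CPM of both libraries (horizontal log axis) of the higher gene (filled) and the lower gene (open) of each of 21 pairs that share a mature strand, ordered by fold from the top. The Mir219a pair, in colour at 1147 and 331 CPM, is the 13th from the top.

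Other miRNAs with a known part in oligodendrocyte precursors or oligodendrocytes, mostly shared with other cell types, were set beside the members. Of 17 listed, 16 had a row, all at a mean of at least 1 CPM and 11 at 100 CPM or more. Their median was 537 CPM, against 331 CPM for the members and 52.7 CPM for all genes of at least 1 CPM. The highest was Mir17, which promotes expansion of precursors in mouse and is active in proliferating cells in general, at 25948 ± 1647 CPM (SD, n = 2), or 22.6 times Mir219a-2. Mir125a followed at 6386 ± 149 CPM, Mir23a, which lowers lamin B1 and favours myelin genes, at 4225 ± 756 CPM, and Mir7b at 2648 ± 107 CPM.

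Closer to the members were the copies Mir138-1 (1087 ± 31.4 CPM) and Mir138-2 (593 ± 20.2 CPM), whose miRNA is induced with miR-219 and miR-338 in maturing mouse oligodendrocytes. Mir7-1 (671 ± 41.1 CPM), Mir7-2 (347 ± 43.9 CPM), Mir27b (591 ± 88.6 CPM) and Mir9-3 (484 ± 39.7 CPM) also lay in that range. Below all members were Mir32 (150 ± 8.85 CPM), Mir146 (86.0 ± 12.0 CPM), Mir145a (72.3 ± 3.25 CPM), Mir212 (42.6 ± 2.48 CPM), Mir27a (42.2 ± 9.23 CPM) and Mir9-2 (1.66 ± 0.131 CPM). Several of these genes are copies that share strands, so the same limit on assigned reads applies. The exact binomial test between the libraries called 8 of the 16 in one direction or the other, against 19.8% of all genes tested and 57.1% of those of at least 100 CPM.

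Set by list medians beside genes listed as markers of other cell types, the members (331 CPM) lay above those of white and red blood cells. They lay below those of neurons and progenitors. Also above the median of the members were those of endothelium (23238 CPM, 1 gene) and mural cells (3065 CPM, 2 genes). That of choroid plexus and pigment epithelium (664 CPM, 2 genes) was above it too. Mir219a-2 alone, at 1147 CPM, was above the neuronal median and the choroid plexus and pigment epithelium median. The neuronal list of 9 genes held 1.85 ± 0.0917% of counts (SD, n = 2), with a median of 831 CPM. Its member Mir128-1 stood at 1447 ± 62.5 CPM, 1.26 times Mir219a-2, and Mir137 at 9.75 times. The progenitor list, with 6 of 7 genes matched, held 2.52 ± 0.0230% with a median of 2272 CPM. Endothelial Mir126a alone held 2.32 ± 0.236%, at 23238 ± 2362 CPM. The mural genes held 0.613 ± 0.0370%, with Mir143 at 6058 ± 373 CPM, above all members, and Mir145a at 72.3 ± 3.25 CPM, below them.

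White cell and microglial genes, 3 of 4 matched, held 0.0326 ± 0.00105% with a median of 99.5 CPM, and Mir219a-2 exceeded the highest of them, Mir223, by 7.28 times. Red cell genes held 0.0203 ± 0.000764% with a median of 37.1 CPM. The choroid plexus and pigment epithelium genes were likewise apart, with Mir204 at 1313 ± 260 CPM and Mir211 at 15.5 ± 1.55 CPM. They held 0.133 ± 0.0258% with a median of 664 CPM, while the members held 0.175 ± 0.00874% with a median of 331 CPM. Shares and medians of lists depend on which and how many genes were listed and on reads with several places. They do not measure shares of cells. Whether the reads of the members came from oligodendrocyte precursors or from other cells of the midbrain was not tested, since the libraries are of whole tissue.

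**Figure D5:**
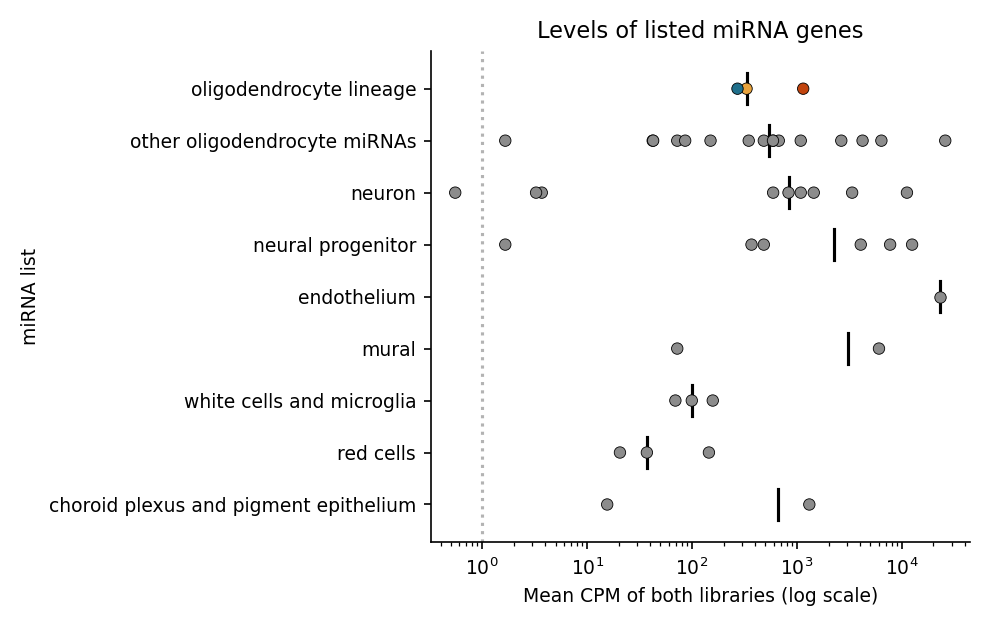
Mean CPM of both libraries (horizontal log axis) for each gene of the lists (rows), with the median of each list as a bar and 1 CPM as a dotted line. The members, coloured in the top row, lie between 271 and 1147 CPM, above the medians of the white cell and red cell lists. The median of the members lies below those of the remaining lists.

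Reads on the opposite strand of the members, where Mir219b, Mir219c and Mir3065 are annotated, were few. They numbered 4 in each library at Mir219a-2, 5 in replicate 1 and 17 in replicate 2 at Mir219a-1, and 3 in replicate 1 and 2 in replicate 2 at Mir338. As shares of all reads at the gene, they were 0.0951% and 0.0649% for Mir219a-2, 0.445% and 0.874% for Mir219a-1, and 0.335% and 0.123% for Mir338, each with replicate 1 before replicate 2. Pooled over all genes of the tables the opposite share was 2.23% in replicate 1 and 2.36% in replicate 2. Those are 78158 and 138760 opposite reads. Of the 203 genes of at least 100 CPM, 191 had 3 or fewer in each library and none had more than 82. The pooled share thus came almost wholly from genes of lower level and is no baseline for the members. The typical gene had none, since 175 of the 203 genes of at least 100 CPM had 0 opposite reads in both libraries. The members, with a few each, were thus outside that majority. The reads assigned at these loci were therefore nearly all from the strand of Mir219a-1, Mir219a-2 and Mir338. Opposite reads within the stretch that the Mir219a genes share also fit both places and may be in neither count.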

How the data were processed

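Small RNA libraries of 2 midbrain pools were used. Per library, the authors deposited a table of raw counts per miRNA gene, with 3 columns (either strand, sense, opposite). Per the deposited readme text, they rest on the mm10 assembly and GENCODE annotation M4. Which aligner and counter made them was not given in the sources used here. All 4 rows that name no gene were kept out of totals and tests. They held, in replicates 1 and 2, 13.4% and 16.9% unmapped reads, 37.7% and 35.8% with several mapping places, 3.57% and 3.43% outside genes and 0% ambiguous.

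Sense counts were scaled to CPM over all genes. Symbols came from GENCODE M21 on the same assembly (1894 of 1973 matched), with RefSeq synonyms for Mir7-1 and Mir7-2. With 1 group, edgeR's quasi-likelihood test has no contrast. The libraries were compared by a two-sided conditional exact binomial test with TMM scaling (edgeR 4.0.16), a pseudocount of 1 CPM and Benjamini-Hochberg adjustment at 0.05. Intervals are exact at 95% (scipy 1.17.1). The procedure was tested on simulated counts of 1973 genes for replicate 1 over replicate 2. It recovered 88.1% of 1.5-fold and 100% of 2-fold changes among genes of at least 100 counts. Those simulated counts held counting error alone, as the binomial test assumes. How the procedure performs with spread between pools was not tested. The genes named were the members, those of the lists, and the 3 nearest in level to each member. Genes beside or opposite a member, in a pair sharing a mature strand, or nearest in sequence are also named. Members and lists were chosen with earlier results of these data known. The alternatives tried were other count columns, totals, scalings (DESeq2 1.42.0 among them), pseudocounts, filters, detection limits and leaving out each replicate.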

Additional observations from a re-analysis of the deposited data

Results flagged for a closer look

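The opposite-strand counts, a column that enters none of the comparisons, were above the limit of 3 counts at both Mir219a genes. Mir219a-2 had 4 such reads in replicate 1 and 4 in replicate 2, at the place of Mir219b. Mir219a-1 had 5 in replicate 1 and 17 in replicate 2, at the place of Mir219c. Scaled to sense totals, the counts of Mir219a-1 were 1.46 CPM in replicate 1 and 2.96 CPM in replicate 2. Among the 203 genes whose mean reached 100 CPM, 12 had more than 3 opposite reads in a library. Of the 11 with an annotated miRNA gene on the other strand, 6 did, and of the 192 without one, 6 did. Mir338, opposite Mir3065, had 3 and 2 such reads in replicates 1 and 2 and was not above the limit.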

How the results depend on the processing

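Levels of the members moved little with scaling or strand column, and fell to 603 CPM for Mir219a-2, 174 CPM for Mir219a-1 and 143 CPM for Mir338 with all mapped reads as the total, which is larger by construction. Per hairpin base, a scale chosen after seeing the data, Mir219a-2 over Mir219a-1 was 3.94 and Mir219a-1 over Mir338 was 1.09. Counting both strands put the members at ranks 90, 158 and 167. In edgeR's exact test with a coefficient of variation of 10%, the log2 ratio of Mir219a-2 stayed 0.23 with adjusted p 1, and 3 genes were called, 1 higher in replicate 1 and 2 in replicate 2, against 142 by counting error alone; that test allows for spread that the binomial test leaves out. The 10% setting is close to the 10.1% that edgeR estimated over these same 2 libraries. In the other alternatives the adjusted p of Mir219a-2 ranged from 9.13e-15 to 1.95e-10 in the exact binomial test. Leaving out each replicate gave levels from 1070 to 1225 CPM for Mir219a-2, 326 to 335 CPM for Mir219a-1 and 260 to 282 CPM for Mir338; ratios between the libraries then have no value. No paired analysis was possible because there is only 1 group.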
